A study of Ceratotherium simum with 9 samples.

Results

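The let-7 microRNAs (miRNAs) were followed in extracellular vesicles of follicular fluid (FF-EVs) from the southern white rhinoceros (SWR). The members were 8 entries of the deposited table, chosen by name: bta-let-7i, bta-let-7b, eca-let-7g, eca-let-7f, eca-let-7a, eca-let-7e, bta-let-7e and bta-let-7a-3p, out of 3886 miRNA names. The prefix gives the species of the reference miRNA, horse (eca), cattle (bta) or human (hsa), since rhinoceros reads were matched to miRNAs of these species with up to 2 mismatches. A further 13 entries carry the name let-7 or miR-98 and were not among the members; 11 of them had at least 1 read.

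Fluid was aspirated from antral follicles of 2 females and staged by follicle diameter as growing (G, 11 to 17 mm), dominant (D, 18 to 29 mm) or pre-ovulatory (P, 30 to 34 mm). Each stage had 3 small-RNA libraries, named G1 to G3, D1 to D3 and P1 to P3. Both females had received the progestin chlormadinone acetate and then the GnRH analog Deslorelin before collection, so every stage came from hormonally stimulated ovaries and no unstimulated group was compared. Equal volumes of EVs from the 2 animals were pooled before RNA extraction, and the methods call the 3 replicates of a stage technical in one place and biological in another. Either way each library pooled the same 2 animals, so no p-value, interval or SD here measures the spread between animals. If the replicates are technical, a p-value here reflects no more than the spread between preparations of the same fluid. In such pooled fluid, fewer vesicles carrying a miRNA and fewer copies per vesicle cannot be told apart.

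The let-7 family was discovered in the worm Caenorhabditis elegans, where it times the passage from larval to adult cell fates, and let-7a has the same mature sequence in worms and mammals. In mammals a hairpin precursor is cut by Drosha and Dicer, the RNA-binding protein LIN28 blocks this maturation in stem and germ cells, and the mature 5′ strands share a seed through which they repress growth-promoting transcripts such as those of RAS genes and HMGA2. The family rises as cells differentiate and is abundant in most adult tissues. The opposite strand of the hairpin, written 3p, has another seed and is mostly degraded.

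The values are CPM, miRNA read counts scaled to a common library total, adjusted between libraries by the trimmed mean of M-values (TMM), and whole reads could be recovered from them. The libraries held 18384 to 149281 miRNA reads, with a median of 38258, and 1 read was worth 5.64 CPM in G3 and up to 38.6 CPM in P2. Some libraries were dominated by 1 miRNA: eca-miR-148a took 71.8% of the reads of D2 and bta-miR-11980 took 34.97% of G1. No miRNA defines follicular vesicles, so the label could be set only against gonad and granulosa cell miRNAs such as miR-21 and miR-202. Of 26 such entries 16 had a read, and they summed to 32920 to 57540.5 CPM in the G libraries, 39915 to 79400.2 CPM in the D libraries and 24643 to 41238 CPM in the P libraries. This sum rests on miR-21, with 16790 reads of eca-miR-21 and 3845 of bta-miR-21-5p, against 597 of bta-miR-202. Since miR-21 is abundant in many cell types, the sum does not show a gonadal origin.

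Together the 8 members held 44392 reads, 8.22% of all miRNA reads. The 5 most abundant, bta-let-7i, eca-let-7g, eca-let-7f, bta-let-7b and eca-let-7a, made up 98.1% of these. In the G libraries the summed level was 74883, 74746 and 113889 CPM, in the D libraries 59129.5, 92421 and 67565 CPM, and in the P libraries 90758, 77451 and 75288 CPM. The stages overlapped, and the highest library (G3) had 1.93 times the sum of the lowest (D1). The stage means were 87839 ± 22560.1 CPM for growing, 73039 ± 17308 CPM for dominant and 81166 ± 8377 CPM for pre-ovulatory follicles (SD, n = 3 each). The ratio of the means was 0.83 for D over G, 0.92 for P over G and 1.11 for P over D. No test was made of the sum, because the members were chosen with results of these data known.

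**Figure D1:**
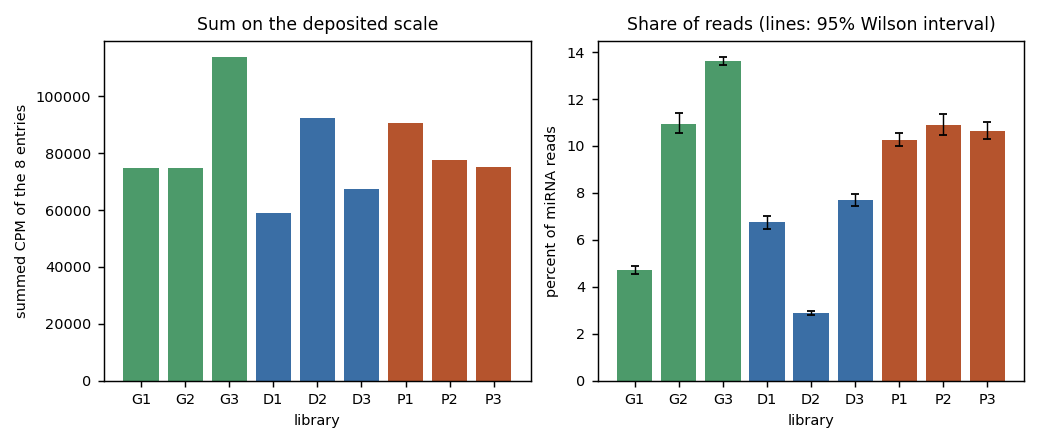
The left panel plots the summed CPM of the 8 let-7 entries in each library, and the right panel their share of all miRNA reads in percent with its 95% Wilson interval, for growing (G), dominant (D) and pre-ovulatory (P) follicles. D2 has the second highest sum (92421 CPM) but the lowest share of reads (2.86%), since eca-miR-148a took 71.8% of its reads.

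As a share of reads, without the TMM adjustment, the picture differed. The 8 members made up 4.72% of the miRNA reads of G1 (95% Wilson interval 4.55 to 4.90%), 11.0% of G2 (10.5 to 11.4%) and 13.6% of G3 (13.4 to 13.8%). In the D libraries the share was 6.74% in D1 (6.47 to 7.02%), 2.86% in D2 (2.78 to 2.95%) and 7.68% in D3 (7.42 to 7.96%). It was 10.3% in P1 (9.998 to 10.5%), 10.9% in P2 (10.5 to 11.4%) and 10.7% in P3 (10.3 to 11.0%). All P libraries lay above all D libraries, as they did for 18.2% of all tested miRNAs on this scale. The G libraries spanned the widest range. These intervals cover counting error only, since PCR reads without molecular identifiers are not independent molecules. The 2 lowest shares were in the libraries that eca-miR-148a (D2) or bta-miR-11980 (G1) dominated. With the reads of these 2 miRNAs left out, a calculation chosen after the values were seen, the members held 10.2% of the other reads of D2 and 8.54% of those of G1. This share averaged 11.7 ± 2.91% over the G libraries, 9.26 ± 1.21% over the D libraries and 12.2 ± 0.202% over the P libraries (SD, n = 3 each). It was 11.95 to 12.3% in the P libraries and 7.89 to 10.2% in the D libraries, and the G libraries overlapped both (8.54 to 14.3%).

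Of the single members, bta-let-7i was the most abundant and the steadiest. In human bile duct cells let-7i is known to repress the Toll-like receptor TLR4. Its level was 29833, 28084 and 31971 CPM in G1 to G3, 23282, 38401 and 22429.7 CPM in D1 to D3, and 26104, 23807 and 22302 CPM in P1 to P3. It ranked between 4 and 7 among all miRNAs in every library. Across the 9 libraries the SD of its log2(CPM + 10) was 0.27, against a median of 1.30 over the 417 miRNAs tested. None of the 78 other tested miRNAs with a mean of at least 1000 CPM had a smaller SD. This steadiness belongs to the TMM-scaled values, since as CPM without that adjustment the level ran between 11890 in D2 and 41158 in G2.

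The other abundant members varied more. The neural stem cell regulator bta-let-7b had 8839.5 to 25749 CPM, with its highest values in P1 and G1, and an SD of 0.51 on the same log2 scale. For eca-let-7f, which promotes vessel growth in human endothelial cells, the range was 9289 to 24742 CPM and the SD 0.41. Its 3 P libraries lay close together, at 11903, 12638 and 12057 CPM, while the G libraries held both its lowest value (G1) and its highest (G3).

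The growth-repressing eca-let-7g, a suppressor of lung tumors in mouse models, was the least even of the abundant members, with an SD of 0.83. It had 5300 CPM in G1, 13824 in G2 and 30628 in G3, then 12185, 20985 and 9238 CPM in D1 to D3, and 5625, 7846 and 13140 CPM in P1 to P3. The spread within G was as wide as the whole range over the 9 libraries. Its 2 highest values were in G3 and D2, which also held the most miRNA reads (148150 and 149281). These counts are not the sequencing depth, which covers all reads of a library. G1, with 58040 miRNA reads, had the lowest value. Whether the number of miRNA reads had a part in this was not tested.

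**Figure D2:**
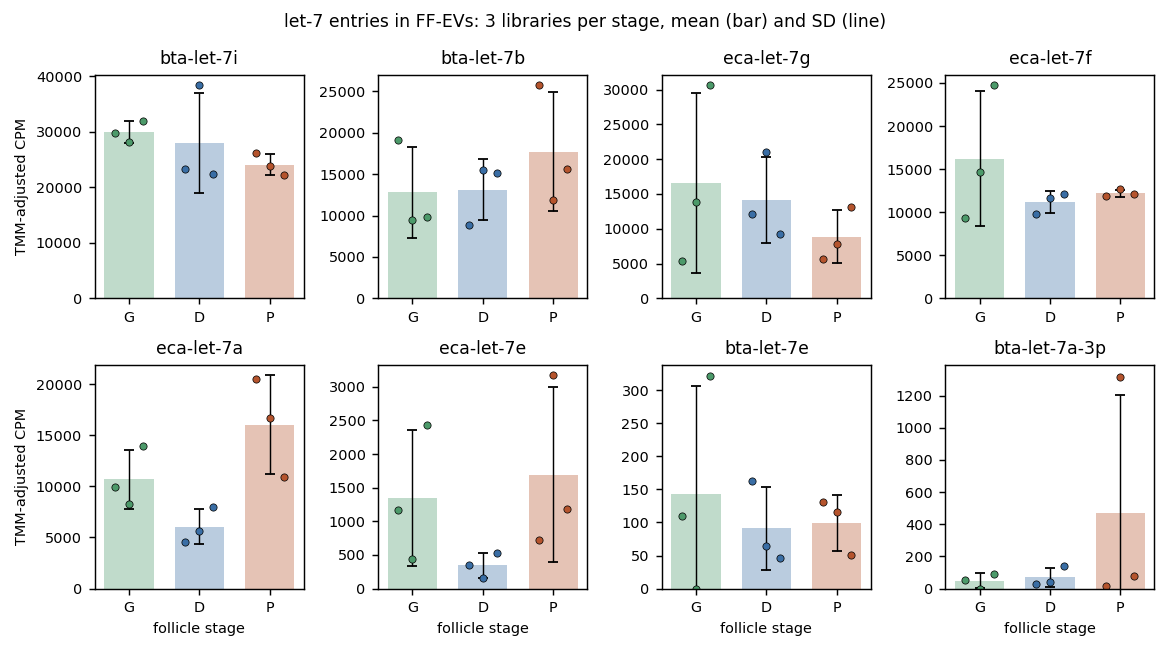
Each panel plots 1 let-7 entry as TMM-adjusted CPM against follicle stage (G, D, P), with a point per library, a bar for the mean and a line for the SD over 3 libraries. The P libraries of eca-let-7a (10899 to 20499 CPM) and of eca-let-7e (729 to 3169 CPM) lie above all D libraries (4542 to 7952 and 151 to 529 CPM), and the bar of bta-let-7a-3p in P rests on P2 (1314 CPM).

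limma called no member differentially expressed in D vs. G, P vs. G or P vs. D, whereas DESeq2 called 2 members in P vs. D. limma was run on the 417 miRNAs that exceeded 10 CPM in 2 or more libraries of any stage, and all 8 members were among them. For a call, the p adjusted by the Benjamini-Hochberg method had to be under 0.1 and the change 2-fold or more on the scale of log2(CPM + 10), where the added 10 CPM understates the change of rare miRNAs.

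In D vs. G, 0 of the 8 members were called, where 0.959% of all tested miRNAs were called. None had an unadjusted p under 0.05 in limma, against 9.35% of all tested, and edgeR and DESeq2 called 0 as well. The changes ran between -1.78 and 0.73, with 4 above and 4 below 0. Their median was -0.06 on the log2 scale, beside -0.43 over all tested miRNAs. The non-overlapping member was eca-let-7a, with 4542, 5668 and 7952 CPM in the D libraries against 9944, 8234 and 13906 CPM in the G libraries. So 1 of 8 lay lower in D without overlap, against 9.59% of all tested, and 0 of 8 lay higher, against 5.04%. As a share of reads D and G overlapped for it, while eca-let-7e was lower in D without overlap, as were 10.3% of all tested. Of the summed entries known from other cells, those of leukocytes and of liver and gut also differed between these libraries without overlap. Red-cell and epithelial entries, listed further below, overlapped. Leukocyte entries had 3590 to 5603 CPM in D against 1360 to 1941 CPM in G, and liver and gut entries (miR-122, miR-192, miR-194 and miR-215, 9 of 14 with a read, the 5 at 0 being bta-miR-194b, bta-miR-194b-3p and the human miR-122-3p, miR-122b-3p and miR-122b-5p) had 60510 to 73491 CPM in D against 14360.0 to 33128 CPM in G. Their part in the levels of the let-7 members was not tested. The log2 change of eca-let-7a was -0.82 (95% interval -1.91 to 0.26, limma adjusted p = 0.556), and that of eca-let-7e was -1.78 (-3.70 to 0.14, limma adjusted p = 0.469).

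In P vs. G, again 0 of 8 members were called, where 0.48% of all tested miRNAs were. At an unadjusted p under 0.05 there were 0 members in limma, against 7.43% of all tested, and 0 calls in edgeR or DESeq2. Changes ranged from -0.65 for eca-let-7g to 1.88 for bta-let-7a-3p, with a median of 0.42, beside -0.28 over all tested miRNAs. Both ends rested on single libraries: the change of bta-let-7a-3p was 0.30 without P2, 0.88 without G2 and 3.07 without P1, and that of eca-let-7g was -1.30 without G1, -0.37 without P1 and -0.04 without G3. The steady bta-let-7i was the 1 member that did not overlap, at 22302 to 26104 CPM in P against 28084 to 31971 CPM in G, while 6% of all tested miRNAs were lower in P without overlap. Its log2 change was only -0.32 (95% interval -1.21 to 0.58, limma adjusted p = 0.867), and as a share of reads the P and G libraries overlapped. In TMM-adjusted CPM 0 of 8 members were higher in P without overlap, against 3.6% of all tested. As a share of reads 1 of 8 was, against 7.67% of all tested: bta-let-7b had 29134, 16699 and 22053 CPM without the TMM adjustment in P1 to P3, against 12095, 13932 and 11725 CPM in G1 to G3. Summed leukocyte entries had 710 to 1082 CPM in P against 1360 to 1941 CPM in G. Liver and gut entries had 35750 to 60973 CPM in P against 14360.0 to 33128 CPM in G. Red-cell and epithelial entries overlapped between P and G. The part of these entries in the let-7 levels was not tested.

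In P vs. D limma and edgeR called 0 of the 8 members and DESeq2 called 2, eca-let-7a and eca-let-7e. Of all tested miRNAs limma called 2.64% there. In limma 2 of 8 members had an unadjusted p under 0.05, against 14.6% of all tested. Both of them, eca-let-7a and eca-let-7e, were higher in P with no overlap, while 12.2% of all tested miRNAs lay higher in P in this way and 10.1% lay lower (0 of the members). The median change of the members was 0.29, beside 0.16 over all tested. A count of 2 among 8 entries is close to these background shares, so it is no result about the family.

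For eca-let-7a, the entry whose mature sequence worms and mammals share, the P libraries had 20499, 16696 and 10899 CPM, against 4542, 5668 and 7952 CPM in the D libraries. Every P library lay above every D library, and G lay between them with 8234 to 13906 CPM, overlapping P. The mean was 16031 ± 4834 CPM in P and 6054 ± 1737 CPM in D (SD, n = 3 each), a log2 change of 1.39 (standard error 0.50, 95% interval 0.31 to 2.48, limma adjusted p = 0.224). Leaving out 1 library at a time the change stayed between 1.19 and 1.65, at a limma adjusted p of 0.143 to 0.409. Without D1 or without P1 its unadjusted p in limma was above 0.05 (0.0576 and 0.0677).

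The rarer eca-let-7e, whose gene shares a transcript with miR-99b and miR-125a in mammals, had 729, 3169 and 1183 CPM in P1 to P3 (39, 82 and 47 reads), against 354, 151 and 529 CPM in D1 to D3 (13, 7 and 23 reads). The groups did not overlap, and P1 and D3 lay closest. The log2 change was 2.16 (standard error 0.89, 95% interval 0.23 to 4.08, limma adjusted p = 0.297). It was 1.57 without P2 and 1.67 without D2, and in both fits its unadjusted p in limma was above 0.05 (0.140 and 0.108).

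DESeq2 on the recovered reads called both eca-let-7a (adjusted p = 0.0296) and eca-let-7e (adjusted p = 0.0602) in P vs. D. It called 11% of all tested miRNAs there and left the adjusted p missing for 150. edgeR called neither (adjusted p = 0.258 for both). Entries known from blood cells also differed between these libraries. The summed level of leukocyte entries (miR-142, miR-223 and miR-150, 8 of 9 entries with a read, bta-miR-142-3p at 0) was 710 to 1082 CPM in P and 3590 to 5603 CPM in D. The sum of red-cell entries (miR-451 and miR-486, 5 of 6 with a read, hsa-miR-451b at 0) was 33470 to 57460 CPM in P and 82089 to 214200 CPM in D. Liver and gut entries overlapped, with 35750 to 60973 CPM in P and 60510 to 73491 CPM in D. Their part in the difference of the let-7 members was not tested.

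**Figure D3:**
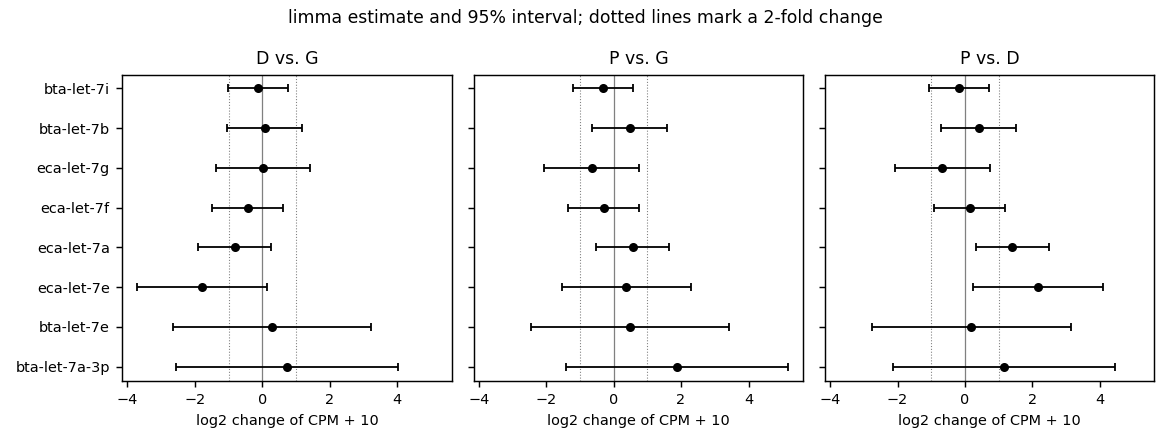
The points plot the log2 change of CPM + 10 of each let-7 entry in D vs. G, P vs. G and P vs. D as estimated by limma, with bars for the 95% interval and dotted lines at a 2-fold change. Intervals that leave out 0 are those of eca-let-7a (0.31 to 2.48) and eca-let-7e (0.23 to 4.08) in P vs. D, before adjustment for the 417 miRNAs tested.

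The intervals show how large a difference these libraries could have missed. For bta-let-7i the interval of the fold change was 0.49 to 1.69 in D vs. G, 0.43 to 1.49 in P vs. G and 0.48 to 1.64 in P vs. D. Those of bta-let-7b and eca-let-7f in P vs. D, 0.61 to 2.85 and 0.53 to 2.28, leave room for more than a doubling. For eca-let-7g in P vs. D the interval was 0.24 to 1.66. The 2 entries with the fewest reads, bta-let-7e and bta-let-7a-3p, had intervals in D vs. G from 0.16 to 9.43 and from 0.17 to 16.2, so that little can be read from their fold changes.

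Within a library the scaling cancels, so the make-up of the family can be compared without it. Since mismatches were allowed in matching, reads may have been assigned to another member of similar sequence. How far such reads altered the shares and ratios of the members was not tested. The share of bta-let-7i in the summed CPM of the 8 members was 28.1 to 39.8% in the G libraries, 33.2 to 41.5% in the D libraries and 28.8 to 30.7% in the P libraries, lower in every P library than in every D library. That of eca-let-7a was 22.6, 21.6 and 14.5% in P1 to P3, above all D libraries (7.68, 6.13 and 11.8%) and all G libraries (13.3, 11.0 and 12.2%). On average eca-let-7a made up 12.2 ± 1.13% of the summed CPM in growing, 8.53 ± 2.91% in dominant and 19.5 ± 4.41% in pre-ovulatory follicles (SD, n = 3 each). The shares of 1 library add up to the whole, so a larger share of 1 member lowers the rest.

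For eca-let-7g the share was 7.08 to 26.9% in growing, 13.7 to 22.7% in dominant and 6.20 to 17.5% in pre-ovulatory follicles. For bta-let-7b it was 8.61 to 25.6% in growing, 14.9 to 22.3% in dominant and 15.3 to 28.4% in pre-ovulatory follicles. Both ranges overlapped between all stages. G1 and P1 had the least eca-let-7g and the most bta-let-7b of the 9 libraries, while G3 had the most eca-let-7g and the least bta-let-7b. The ratio of bta-let-7b to eca-let-7g reads was accordingly 3.62 in G1, 4.58 in P1 and 0.32 in G3, and 0.69 to 1.63 in the other 6 libraries. This pattern followed single libraries and not the stage.

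**Figure D4:**
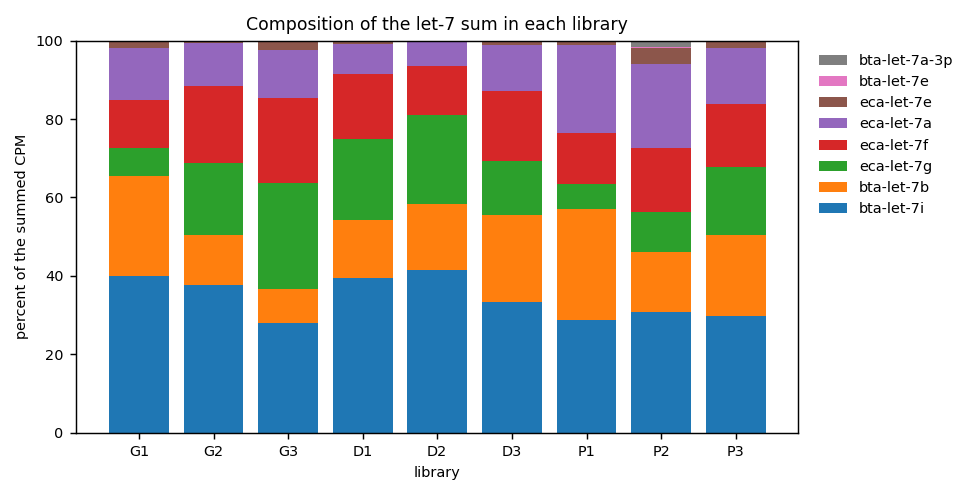
Each stacked bar shows, for 1 library of growing (G), dominant (D) or pre-ovulatory (P) follicles, the percent of the summed let-7 CPM that each entry made up. The eca-let-7a segment is largest in P1 and P2 (22.6 and 21.6%), eca-let-7g is smallest in P1 and G1 (6.20 and 7.08%), and bta-let-7e is at most 0.28% and too thin to see.

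The ratio of eca-let-7a to eca-let-7f reads, chosen after the values were seen, was 1.72, 1.32 and 0.90 in P1 to P3, against 0.47, 0.49 and 0.66 in D1 to D3. In the G libraries it was 1.07, 0.56 and 0.56. The P libraries lay above the D libraries here as well, and G1 fell among the P libraries. Whether reads assigned to the wrong entry had a part in this ratio was not tested.

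The 3 rare entries held the remaining reads. Both bta-let-7e and eca-let-7e name the same miRNA in 2 species and, with mismatches allowed, may share reads. The bovine entry had 0 to 57 reads per library, 84 in all, against 697 for the equine entry, and it was unread in G2, where a count of 0 allows up to 100.4 CPM. It made up 11.7% of the let-7e reads of G3 (95% Wilson interval 9.14 to 14.9%), the only library with more than 10 reads of it. With both entries summed, the log2 change of let-7e in P vs. D was 1.89.

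The passenger strand bta-let-7a-3p had 65 reads in all, of which 34 were in P2 and 16 in G3. Its level was 55, 0 and 90 CPM in G1 to G3, 27, 43 and 138 CPM in D1 to D3, and 19, 1314 and 76 CPM in P1 to P3. P2 stood apart from the other 8 libraries. Among the let-7a reads of P2, those of eca-let-7a and bta-let-7a-3p together, 7.30% were of the 3p strand (95% Wilson interval 5.27 to 10.02%). In G3 the share was 0.645% (0.398 to 1.05%), and in D3, the next highest, 1.70% (0.783 to 3.67%). It was 0.0911% in P1 (0.0161 to 0.514%) and 0.688% in P3 (0.234 to 2.00%). The positive change of bta-let-7a-3p in P vs. D (1.16, limma adjusted p = 0.725) turned to -0.42 without P2.

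Beyond the 8 members, 8 of the 13 other entries named let-7 or miR-98 were tested. limma called 0 of these in D vs. G, P vs. G or P vs. D, against 0.959%, 0.48% and 2.64% of all tested miRNAs. At such shares a count of 0 among 8 is no result about these entries. The members made up 88.7 to 95.02% of the CPM of all entries with these names. The most abundant of the others was eca-let-7c, a 5′ strand with 6841 ± 968 CPM in growing, 4888 ± 2128 CPM in dominant and 7399 ± 1498 CPM in pre-ovulatory follicles (SD, n = 3 each). After it came, with the stages in the same order, eca-let-7d (1372 ± 902, 416 ± 182 and 556 ± 191 CPM), hsa-let-7d-3p (411 ± 247, 409 ± 272 and 569 ± 442 CPM) and eca-miR-98 (206 ± 33.9, 897 ± 988 and 153 ± 117 CPM). The last of these, which has the let-7 seed, was higher in D than in G without overlap. It had 245, 2034 and 414 CPM against 219, 167 and 231 CPM, and D2 held most of it. Its limma adjusted p was 0.645. It was 1 of the 8 tested entries, against 5.04% of all tested miRNAs, and a count of 1 is no result about these entries.

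Several let-7 genes lie beside other miRNA genes in mammals and are transcribed with them: let-7c with miR-99a, a let-7a gene with miR-100, let-7e with miR-99b and miR-125a, and a let-7f gene with miR-98. Of 8 tested entries of these neighbours, miR-125b included, 0 were called in limma in D vs. G, P vs. G or P vs. D. The shares of all tested miRNAs called there were 0.959%, 0.48% and 2.64%, so this count is no result about the neighbours. These entries are not all separate miRNAs, since miR-99a and miR-125a each appear as a bovine and an equine entry. The entry eca-miR-98 is also among the let-7 or miR-98 entries counted above. In P vs. D 4 of 8 were higher in P without overlap, against 12.2% of all tested miRNAs, with an adjusted p of at least 0.148 in limma. Of the miR-99a pair and of the miR-125a pair, only the less abundant entry was among these 4. The median log2 change of the 8 was 0.99, beside 0.16 over all tested. In D vs. G and in P vs. G, 1 of 8 was higher without overlap, against 5.04% and 3.6% of all tested. These were eca-miR-98, already given above, and eca-miR-99a. The most abundant were bta-miR-99a-5p (24046 ± 19326 CPM in growing, 23336 ± 8943 CPM in dominant and 38246 ± 12977 CPM in pre-ovulatory follicles), eca-miR-99a (7634 ± 4902, 7521 ± 5453 and 30796 ± 18868 CPM), eca-miR-100 (11684 ± 5416, 8176 ± 2112 and 15330 ± 2676 CPM) and eca-miR-125b-5p (2639 ± 1416, 1724 ± 439 and 3580 ± 749 CPM; SD, n = 3 each). Of these eca-miR-99a, eca-miR-100 and eca-miR-125b-5p did not overlap between P and D. The neighbours of let-7e were not alike in P vs. D. On the log2 scale bta-miR-125a was 2.00 higher in P, without overlap (limma adjusted p = 0.265). The more abundant eca-miR-125a-5p was 1.70 higher, but its P and D libraries overlapped (limma adjusted p = 0.368). For eca-miR-99b the change was 0.22 (limma adjusted p = 0.918).

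The miRNAs whose level over the 9 libraries was most like the let-7 sum were bta-miR-30d, eca-miR-26a, eca-miR-99b, bta-miR-151-3p and eca-miR-30d. Likeness was the root mean square difference of log2(CPM + 10), each miRNA centered on its own mean, which was 0.316, 0.339, 0.368, 0.373 and 0.422 for these 5, against a median of 1.23 over 401 other tested miRNAs. Each member is part of the sum, and bta-let-7i alone made up 28.1 to 41.5% of it, so some closeness is built in. Among the members themselves the difference was 0.210 for bta-let-7i, 0.268 for eca-let-7f and 0.508 to 0.707 for bta-let-7b, eca-let-7a and eca-let-7g. It was 1.24 to 1.84 for the 3 rare entries. All of these values share the 9 libraries and their scaling. The log2 let-7 sum itself had an SD of only 0.28 over the 9 libraries. A small difference from it therefore mainly marks a steady miRNA and does not show a shared pattern. The highest library of eca-miR-26a (31621 CPM) and of bta-miR-151-3p (26853 CPM) was G3, as it was for the let-7 sum.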

How the data were processed

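Small RNA from FF-EVs was sequenced in 9 libraries, 3 per stage (G, D and P), grouped by the labels. According to the methods, the authors trimmed reads and annotated them in CLC Genomics Workbench against equine, bovine and human miRNAs of miRBase, with equine entries first. The deposited signal values are CPM adjusted by TMM, whose library sums run from 682352 to 3229574. bcl2fastq and DESeq2 are named in the processing notes. Values were divided by the smallest of their library, and 100% of those above 0 came out as whole reads within 0.01 of a read.

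limma 3.58.1 (R 4.3.3) with a trended variance was fitted on log2(CPM + 10) for 417 miRNAs, all 9 libraries in one fit with group as the only factor. edgeR 4.0.16 and DESeq2 1.42.0 on recovered reads were alternatives, and edgeR called 4, 3 and 7 miRNAs in D vs. G, P vs. G and P vs. D. Positive changes mean higher in the later stage. Steps were tested on simulated counts. Other steps used Python 3.11.15 with pandas 2.3.3, numpy 2.4.6, scipy 1.17.1 and matplotlib 3.10.9. Alternatives changed the pseudocount, filter, scaling, threshold, groups, trend, replicate block and tool, and left out each library. The members and lists were chosen with earlier results of these data known. Named miRNAs are the 8 members, the 4 most abundant others named let-7 or miR-98 and any called, the 5 most like the let-7 sum and up to 4 neighbours. eca-miR-148a, bta-miR-11980, bta-miR-125a, eca-miR-125a-5p and the marker entries were named after their values were seen.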

Additional observations from a re-analysis of the deposited data

How the results depend on the processing

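Of 66 counts of called members over the alternatives, 65 were 0 as reported, and the exception was 2 in P vs. D with DESeq2. These counts are not separate tests. At an adjusted p under 0.05 the same fit could only give 0 again. Leaving out a library of the stage not compared left the log2 changes as they were. The number of all called miRNAs moved far more. In D vs. G (4 as reported) it was 1 with total-sum scaling or with only the 2 groups in the fit, 14 with DESeq2, 12 without G1 and D2 together, and 1 to 8 with 1 library left out. In P vs. G (2) it was 0 without a filter, with total-sum scaling, with only the 2 groups or at an adjusted p under 0.05, 1 without trend, 4 with the strict filter, 14 with DESeq2, 33 without G1 and D2, and 0 to 28 with 1 library left out (28 without G1). In P vs. D (11) it was 7 with a pseudocount of 50 or with edgeR, 6 with the strict filter or at 0.05, 46 with DESeq2, 21 with only the 2 groups, and 0 to 18 with 1 library left out (0 without P2, 18 without G2). The split in P vs. D was 4 higher and 7 lower, and 10 and 3 under total-sum scaling. The strict filter removed bta-let-7e and bta-let-7a-3p.

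Total-sum scaling moved the median log2 change of all tested miRNAs by -0.34 (D vs. G), 0.26 (P vs. G) and 0.54 (P vs. D). The ratio of the let-7 sum in P over D became 1.84, and 1.32 without eca-miR-148a and bta-miR-11980, and 3 members (18.2% of all tested) were then higher in P without overlap in share of reads. It turned bta-let-7b (-0.42) and eca-let-7g (-0.46) in D vs. G, bta-let-7i (0.026) and eca-let-7f (0.044) in P vs. G; for P vs. D it turned bta-let-7i (0.65) and eca-let-7g (0.15). Other turns were of changes near 0 or of rarely read entries: in D vs. G bta-let-7i with edgeR (0.063), eca-let-7g with DESeq2 (-0.0066) and without G1 and D2 (-0.96), and bta-let-7e with a pseudocount of 50 (-0.11), edgeR (-0.45) and DESeq2 (-0.39); in P vs. G bta-let-7e with edgeR (-0.41) and DESeq2 (-0.24); for P vs. D bta-let-7i without G1 and D2 (0.072). With 1 library left out, D vs. G ran from -0.11 to 0.40 for bta-let-7b, -0.63 to 0.64 for eca-let-7g, -1.15 to 1.38 for bta-let-7e and -0.28 to 1.39 for bta-let-7a-3p. P vs. G ran from -0.64 to 0.063 for eca-let-7f, -0.27 to 0.96 for eca-let-7e and -0.96 to 1.57 for bta-let-7e. P vs. D ran from -0.32 to 0.072 for bta-let-7i, -0.16 to 0.66 for bta-let-7e and -0.42 to 2.34 for bta-let-7a-3p. The causes were not tested.

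Of 9 same-numbered pairs of libraries, 2 deviated together at r above 0.1 (-0.06 to 0.14). Of 18 differently numbered pairs 0 did (-0.19 to 0.05). Correlations this weak leave unsettled whether replicate numbers pair the libraries. With the replicate block 4, 3 and 11 miRNAs were called (D vs. G, P vs. G, P vs. D), and 0 members. Leaving out G1 and D2 together, summing the let-7e entries and leaving out 2 miRNAs were chosen after the data had been seen.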

Other observations

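Strand shares also varied for let-7d, a relative of the members with reads from both strands. Among the reads of eca-let-7d and hsa-let-7d-3p, the 3p strand made up 23.8% in G1 (95% Wilson interval 16.7 to 32.8%), 33.3% in G2 (16.3 to 56.3%) and 18.6% in G3 (14.8 to 23.1%). In the D libraries it made up 23.3% in D1 (11.8 to 40.9%), 68.8% in D2 (54.7 to 80.1%) and 51.9% in D3 (34.0 to 69.3%). In the P libraries the share was 17.4% in P1 (6.98 to 37.1%), 55.8% in P2 (41.1 to 69.6%) and 54.9% in P3 (41.4 to 67.7%). The stages overlapped, and P2, the library with the high share of bta-let-7a-3p, was not the highest here. Epithelial miRNAs (miR-200 family, miR-141, miR-429 and miR-205) summed to 29353 CPM in G3, the library with the highest let-7 sum, against 3131 to 11858 CPM in the other 8 libraries, and the part of this in the let-7 levels of G3 was not tested.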
